A study of Mus musculus with 30 samples.

Results

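Cultured FGRS KLS cells were compared, gene by gene, with LKS-SLAM cells of the bone marrow that descend from converted endothelium. FGRS stands for Fosb, Gfi1, Runx1 and Spi1, the 4 transcription factors used to convert adult mouse endothelial cells, and KLS or LKS for sorted cells that are positive for Kit, negative for lineage markers and positive for Sca1. The first group held 3 libraries of adherent FGRS KLS cells, co-cultured with HUVEC, endothelial cells of the human umbilical vein, and taken on day 28, and annotated with the genotype derived and with no tissue. The second group held 3 libraries titled rEC LKS-SLAM, annotated as derived and as freshly isolated from bone marrow. Replicate 2 of that group is titled as primary and as clone 47G1, replicate 3 is titled as secondary, and the title of replicate 1 names neither a clone nor a transplant. Both groups thus carry the genotype derived, and culture, transplant, sort gate and tissue of origin all differ between them and cannot be told apart. The labels do not say whether the replicates of a group come from separate animals or cultures, so p-values measure the spread between libraries, which may be technical. Wild type LKS-SLAM cells, freshly isolated from bone marrow, gave 3 control libraries, whose levels are set beside those of the 2 compared groups.

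A gene entered the comparison where it was listed at 1 FPKM or more in at least 2 of the 6 libraries. FPKM, fragments per kilobase of transcript, scaled to the mapped fragments of a library, is a level per length, so that levels of different genes can be set beside each other. The rule kept 12636 of the 23060 genes of the table. Of these, 9742 reached 1 FPKM in all 6 libraries. A further 280 did so in at least 2 FGRS KLS libraries and in no rEC library, and 1100 in at least 2 rEC libraries and in no FGRS KLS library. These entered only through the group where they are high, so a call in that direction describes their levels and is no separate support. Differences are in log2(FPKM + 1), FGRS KLS minus rEC LKS-SLAM, so 1 is a doubling and levels near or under 1 FPKM are compressed. Values of 3 libraries are given in the order of replicates 1, 2 and 3.

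The rEC LKS-SLAM libraries were not alike. Across the genes compared, Pearson's r of log2(FPKM + 1) was 0.943 between rEC replicates 1 and 3, but 0.741 and 0.797 between replicate 2 and these. Replicate 2 lay at 0.839 to 0.871 with the FGRS KLS libraries, which had 0.960 to 0.991 among themselves, and at 0.824 to 0.863 with the control libraries. The rEC replicates 1 and 3 lay at 0.692 to 0.815 with the FGRS KLS and at 0.892 to 0.956 with the control libraries. These are descriptions across genes, which are not independent. The 7 stem cell markers included Mecom, Hlf, Procr and Fgd5, and also Slamf1, a gene of the SLAM gate, whose level the sort can set. Their summed level was 543, 51.7 and 634 FPKM in the rEC libraries, 320 to 426 FPKM in the control libraries and 21.1 to 32.1 FPKM in the FGRS KLS libraries. That of 6 erythroid markers was 242, 496 and 14.2 FPKM in the rEC libraries. The rEC libraries thus carry the stem cell markers of their label at the level of the controls or above in replicates 1 and 3. In replicate 2, 6 of the 7 markers reached 1 FPKM, but their sum lay nearer to the FGRS KLS libraries than to the controls. Its erythroid sum was the highest of the rEC libraries. The match of replicate 2 to its label is thus in doubt and was not tested, and it was kept as labelled. FGRS KLS cells are annotated as haematopoietic stem cells, and of the 7 stem cell markers 5, 5 and 4 reached 1 FPKM in their libraries. The table holds no counts, so read depth is unknown. The most common ratio among low values puts depth relative to FGRS KLS replicate 1 at 1.04 and 1.11 in the other cultures and 0.702 to 0.914 in the rEC libraries, but only 4.49% to 6.53% of low genes share that ratio. The number of genes at 1 FPKM or more was 11022 to 11239 and 11065 to 12295. Counts over all 6 libraries are followed, for most gene lists, by those without rEC replicate 2 or with each library left out in turn. Replicate 2 is singled out because its values in these same data lie apart. The p-values without it are therefore descriptions and no independent test.

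Haematopoietic stem cells renew themselves and give rise to all blood lineages. Their state depends on transcription factors such as Gata2, Tal1, Meis1 and Mecom. In the marrow most of them are quiescent, held there by niche signals and by inhibitors such as Cdkn1c. As progenitors commit to the myeloid lineage, the Ets factor PU.1, which Spi1 encodes, switches on genes of monocytes, macrophages and granules, and at high level it opposes the erythroid program of Gata1. Culture with growth factors usually brings such cells into cycle.

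Over all 6 libraries 900 genes passed limma's test at a Benjamini-Hochberg adjusted p under 0.05, which is 7.12% of the genes compared. FGRS KLS cells were higher for 538 (4.26%) and lower for 362 (2.86%). In each of the 900 the groups did not overlap, against 35% of all genes compared. Call and overlap use the same values, so this is no separate support for the calls. The difference was at least 1, a doubling of FPKM + 1, for 893 of them. Without rEC replicate 2 the same test called 6800 genes (53.8%), 2804 higher (22.2%) and 3996 lower (31.6%), and all 900 genes were among them with the same direction. The groups then did not overlap for 29.9% of genes with the cultures higher and 42.2% with the cultures lower. Counts of list members called are to be read against the share of all genes called in the same setting. Leaving out another library lowered the count: 492 genes were called without FGRS KLS replicate 1, 85 without replicate 2, 75 without replicate 3, 265 without rEC replicate 1 and 325 without rEC replicate 3. In bulk samples like these, more cells of a type and more RNA per cell cannot be told apart. A total of 73 genes, 60 higher and 13 lower, were called with any single library left out. A fit over all 29 grouped libraries called 6253 genes (49.5%). It pools the spread over all groups, which may be too small here because the rEC libraries vary more than those of other groups. The median SD of log2(FPKM + 1) was 0.56 among the rEC libraries and 0.21 among the FGRS KLS libraries. Over all genes the median difference was -0.15, and -0.21 without rEC replicate 2. Centring every library on its median moved the median difference to 0.03 and quantile normalization to -0.03, and neither moved the share of higher calls by more than 10 percentage points.

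**Figure D1:**
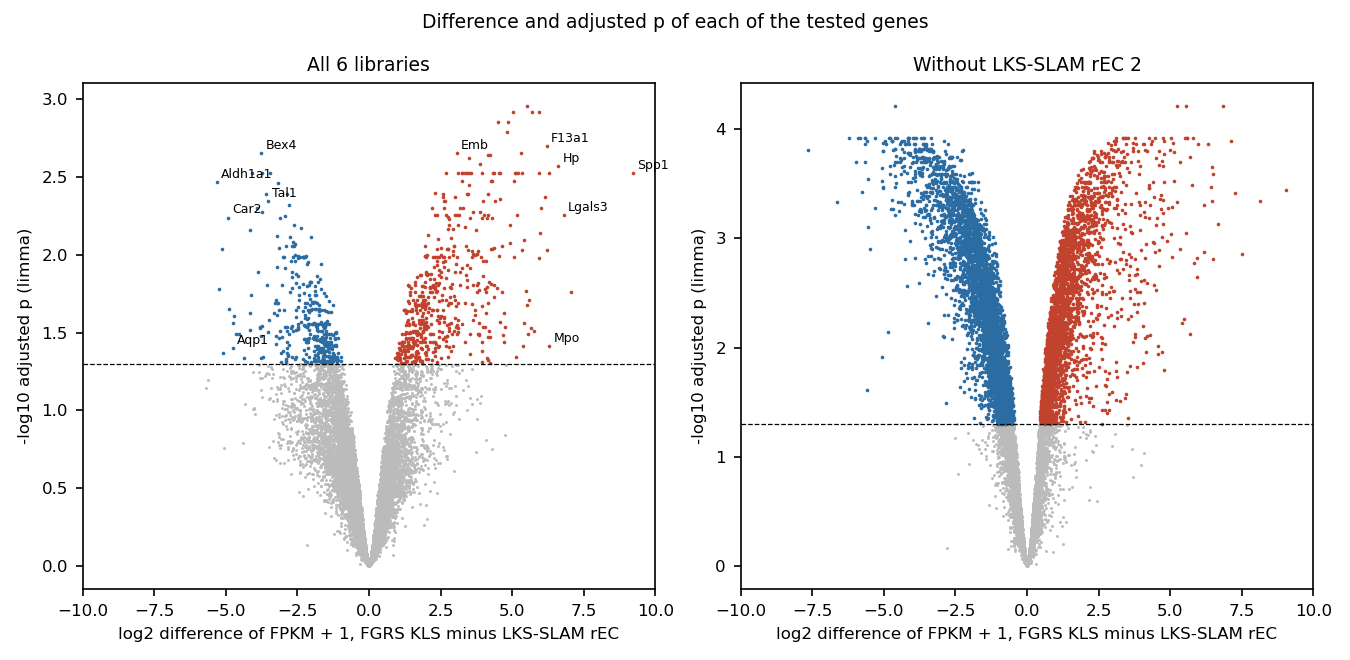
Difference of log2(FPKM + 1) between FGRS KLS and rEC LKS-SLAM cells (x axis) against -log10 of limma's adjusted p (y axis) for the 12636 genes, over all 6 libraries (left) and without rEC replicate 2 (right). Red and blue points are the genes called higher and lower, grey points were not called and the dashed line is an adjusted p of 0.05, which 900 genes pass on the left and 6800 on the right.

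Among the conversion factors Spi1 and Fosb differed in opposite directions. Spi1 stood at 168, 301 and 253 FPKM in FGRS KLS cells and at 80.8, 20.4 and 58.4 FPKM in rEC LKS-SLAM cells, with 76.3 FPKM on average in the controls, and rose by 2.32 ± 0.52 (SE, adjusted p = 0.0448, limma). Fosb, an AP-1 subunit, stood at 8.46, 12 and 8.34 FPKM against 242, 31.1 and 366 FPKM, with 624 FPKM in the controls, and fell by 3.76 ± 0.85 (adjusted p = 0.0459). Neither group overlapped the other for these factors. Both calls were lost when any library other than rEC replicate 2 was left out, with quantile normalization and without a filter on low values. That of Fosb was also lost with a pseudocount of 5. Runx1 stood at 18.1, 11.9 and 12.7 against 39.1, 11.6 and 28.8 FPKM and Gfi1 at 10.6, 15.1 and 12.9 against 10.4, 3.42 and 13.8 FPKM, and the groups overlapped for both. Their differences were -0.72 ± 0.46 and 0.60 ± 0.47 (adjusted p = 0.321 and 0.415), and without rEC replicate 2 that of Runx1 was called lower, at -1.20 (adjusted p = 0.00608). These levels pool transcripts of the native genes and of any factor transgene that matches them, which the table does not separate.

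The genes of the sort markers matched the 2 gates in part. Kit, the stem cell factor receptor, was lower in FGRS KLS cells, at 32.9, 12.3 and 11.6 against 155, 63.5 and 109 FPKM, a fall of 2.54 ± 0.49 (adjusted p = 0.0305, limma). Ly6a, which encodes Sca1, stood at 104, 99.1 and 72 against 154, 6.99 and 184 FPKM, and rEC replicate 2 was the lowest library although both gates select for Sca1. It was not called over all 6 libraries (adjusted p = 0.75) and was called lower without rEC replicate 2. Itgam, the CD11b chain used to remove myeloid cells in many lineage panels, stood at 51.5, 115 and 112 against 4.22, 0.381 and 1.01 FPKM and rose by 5.17 ± 0.56 (adjusted p = 0.00555). SLAM gates usually take cells with Slamf1 (CD150) and without Cd48, so the levels of both only describe the sort. Slamf1 was at 0.48, 0.353 and 0.114 against 21.1, 2.46 and 47.7 FPKM, and Cd48 at 86.5, 103 and 79.3 against 15.9, 28.2 and 0.227 FPKM. Ptprc, the pan-leukocyte CD45, was at 91.2, 77.7 and 74.9 against 60.2, 15.1 and 64.9 FPKM and was not called (adjusted p = 0.245).

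**Figure D2:**
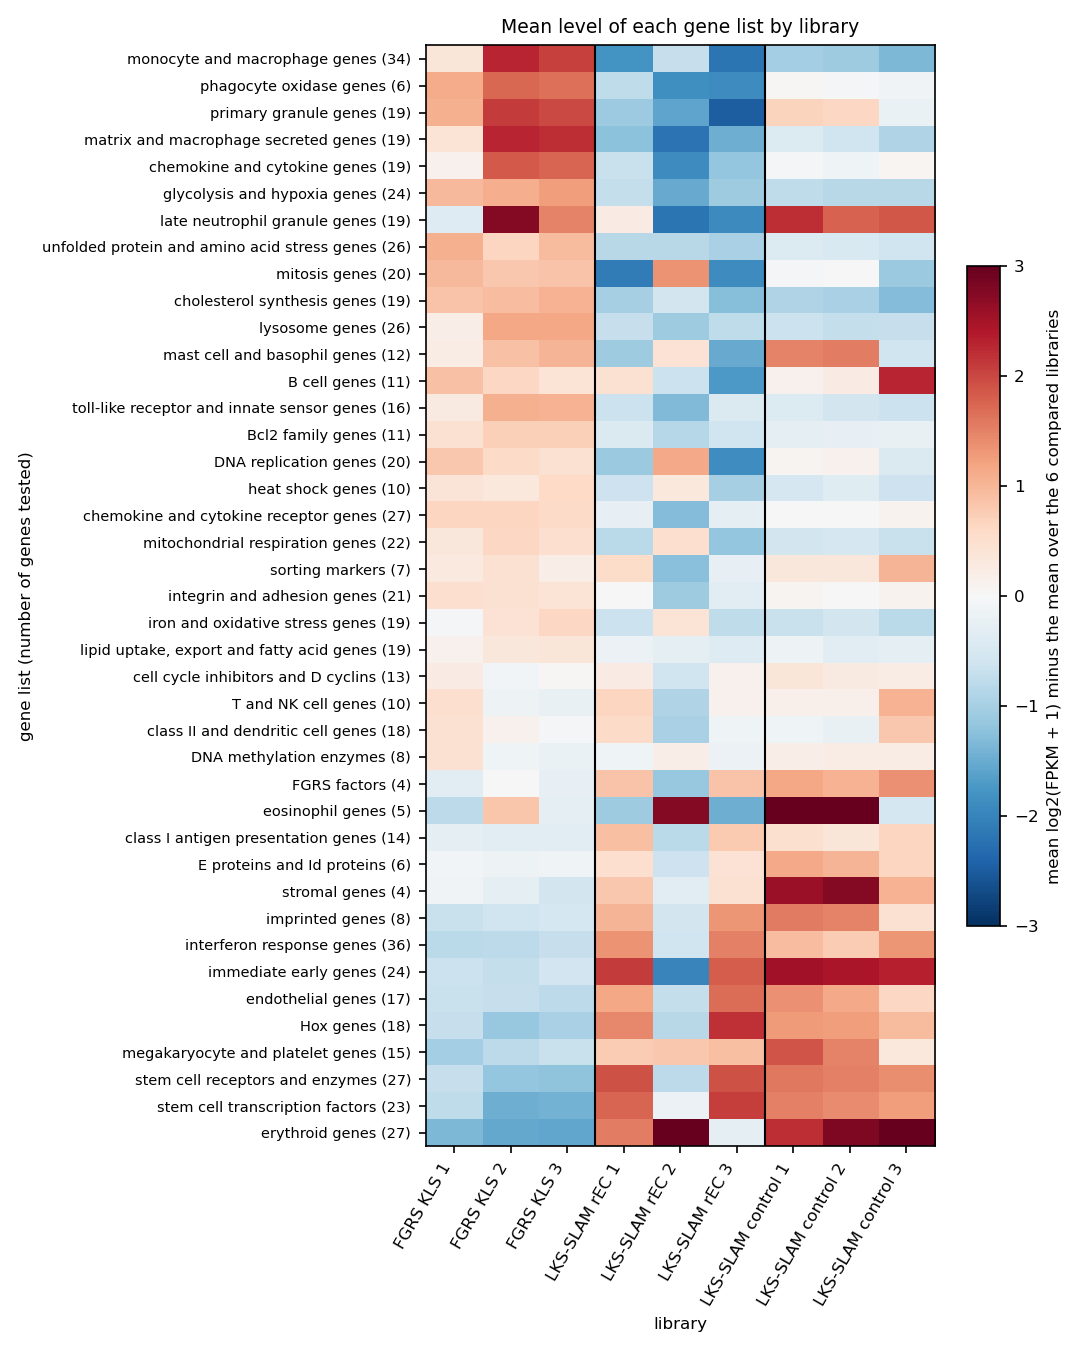
Mean log2(FPKM + 1) of the tested members of 41 gene lists (rows, with the number of members) in each library (columns), as the deviation from the mean over the 6 compared libraries. Lists are ordered by their median difference, and the columns show that rEC replicate 2 lay on the side of the FGRS KLS libraries for interferon response, immediate early, Hox, DNA replication and mitosis genes and above every other compared library for erythroid genes.

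Monocyte and macrophage genes were higher in the cultured cells. Of 34 members tested, 18 rose and none fell over all 6 libraries, with a median difference of 3.26 against -0.15 over all genes. Without rEC replicate 2, 28 were called higher and 3 lower, among them Apoe and Cd163. The monocyte and macrophage genes called higher numbered 15, 2 and 4 when FGRS KLS replicate 1, 2 or 3 was left out, and 8, 28 and 10 when rEC replicate 1, 2 or 3 was. Csf1r, the receptor for the macrophage growth factor, stood at 51.2, 108 and 84.9 FPKM in FGRS KLS cells and 1.22, 10.6 and 0.0466 FPKM in rEC LKS-SLAM cells, a rise of 4.71 ± 0.84 (adjusted p = 0.0238, limma). F13a1, the transglutaminase subunit of blood and monocyte factor XIII, stood at 82.7, 118 and 168 against 1.6, 0.181 and 0.361 FPKM, with 13 FPKM in the controls, and rose by 6.21 ± 0.41 (adjusted p = 0.00201). The groups lay far apart for F13a1, with each control library in between. Ccr2, the receptor that draws classical monocytes to Ccl2, was even across the cultures, at 76.9, 80.1 and 90.7 against 1.06, 0.0813 and 0.101 FPKM, and rose by 5.95 ± 0.33 (adjusted p = 0.00121).

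Other macrophage genes differed between the cultures themselves. Trem2, a lipid-sensing receptor of macrophages, stood at 13.1, 159.7 and 121 against 0.108, 1.67 and 0 FPKM, and its signalling partner Tyrobp at 389.5, 851 and 765 against 23.9, 41.1 and 0.937 FPKM. Both rose, by 5.50 ± 0.93 and 5.65 ± 1.08 (adjusted p = 0.021 and 0.0296, limma). FGRS KLS replicate 1 was the lowest of the 3 cultures for both genes. The complement subunits C1qa, C1qb and C1qc did not pass over all 6 libraries, and replicate 1 of the cultures was low and rEC replicate 2 high for them. C1qb stood at 18.6, 367 and 145 against 2.28, 82.9 and 0.596 FPKM, a difference of 3.74 ± 1.64 (adjusted p = 0.185), and 5.47 without rEC replicate 2 (adjusted p = 0.00543). For the macrophage receptor Mrc1 too replicate 1 was the lowest culture and replicate 2 the highest rEC library, at 3.83, 66.4 and 37 against 0.539, 15.6 and 0.677 FPKM, and Adgre1, the F4/80 antigen, likewise, at 6.67, 60.1 and 32.5 against 0.0159, 7.69 and 0.169 FPKM. The summed level of 7 macrophage markers (among them Csf1r, Adgre1, C1qb and Mrc1) was 166, 1090 and 628 FPKM in FGRS KLS libraries and 20, 239 and 27.7 FPKM in rEC libraries.

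Promoter windows of RefSeq (GRCm38.p6, 250 bases before to 50 after each start) were searched on both strands for motifs, each in 1 spelling with N for any base. They were GAGGAAGT, an element of the kind that PU.1 binds, TCACNCCAC, a sterol regulatory element, TGATGNAAT, an ATF4 element, TGANTCA, an AP-1 element, TGTGGTTT, a RUNX element, and the CLEAR element of lysosome genes. The PU.1 element was present for 3.69% of all RefSeq genes with a window and for 3.97% of the 9642 compared genes matched by symbol. It was present for 36 of 385 genes called higher (9.35%) and for 9 of 260 called lower (3.46%). Without rEC replicate 2 the shares were 5.16% and 3.23%. The AP-1 element, in 6.22% of the compared genes, was present for 9.87% of those called higher and 8.08% of those called lower, but for 5.91% and 6.79% without rEC replicate 2. The RUNX element, in 1.45% of the compared genes, was present for 2.6% and 2.69% of those called higher and lower, and for 1.31% and 1.66% without that library. For the CLEAR element the shares were 0.819% of the compared genes and 0.779% and 0.769% of those called. A match describes the letters of a window and is not a binding site or a cause, and no match says only that these letters are not in that window. The windows of F13a1 and Ly6c2 are shown because both genes rose and belong to the macrophage list, and the capitals mark the PU.1 element. The F13a1 window (chr13:37049164-37049463, reverse strand) has it at 14 bases after the start, and that of Ly6c2 (chr15:75111922-75112221, reverse strand) has it at 108 bases before and at 26 bases after the start. Ly6c2 has a second RefSeq window (chr15:75111888-75112187), not shown, with 2 matches, at 142 and at 8 bases before its start.
F13a1: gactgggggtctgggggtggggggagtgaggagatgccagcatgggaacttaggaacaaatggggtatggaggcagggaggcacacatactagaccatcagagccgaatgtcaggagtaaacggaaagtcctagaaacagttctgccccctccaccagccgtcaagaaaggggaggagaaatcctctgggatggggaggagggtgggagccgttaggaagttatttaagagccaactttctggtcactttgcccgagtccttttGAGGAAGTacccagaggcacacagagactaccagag
Ly6c2: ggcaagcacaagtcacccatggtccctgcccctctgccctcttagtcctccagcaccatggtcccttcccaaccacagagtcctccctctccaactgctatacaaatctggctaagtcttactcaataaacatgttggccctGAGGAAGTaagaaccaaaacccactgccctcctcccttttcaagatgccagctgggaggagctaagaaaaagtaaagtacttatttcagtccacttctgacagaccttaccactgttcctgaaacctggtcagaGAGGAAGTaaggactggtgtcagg
Ly6c2 encodes a surface protein of inflammatory monocytes and stood at 155, 259 and 368 against 11.4, 9.51 and 0.285 FPKM, a rise of 5.48 ± 0.86 (adjusted p = 0.0172, limma). Its near-identical neighbour Ly6c1 stood at 1.42, 4.8 and 6.67 against 0.824, 0.178 and 4.01 FPKM, and how short fragments were split between them is uncertain.

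Primary granule genes of myeloid progenitors were high in the cultured cells. Of 19 tested, 10 rose and none fell, 17 were called higher without rEC replicate 2, and the median difference was 3.06. The primary granule genes called higher numbered 8, 3 and 2 when FGRS KLS replicate 1, 2 or 3 was left out, and 7, 17 and 9 when rEC replicate 1, 2 or 3 was. Mpo, the myeloperoxidase of the granules, stood at 659.8, 1172 and 910.0 FPKM against 20.5, 60.2 and 0.11 FPKM. The protease Elane stood at 234, 798 and 658 against 11.1, 48.5 and 1.01 FPKM, and the protease Ctsg at 599.9, 1099 and 976 against 8.6, 28.4 and 0 FPKM. The 3 genes rose by 6.29 ± 1.33, 5.55 ± 1.11 and 7.04 ± 1.12 (adjusted p = 0.0385, 0.0325 and 0.0175, limma). The rEC libraries were also far apart from each other for all 3 genes, with replicate 2 the highest and replicate 3 the lowest. The wild type LKS-SLAM libraries, set beside them, had means of 532, 354 and 197 FPKM, well above every rEC library. Control replicates 1 and 2 lay within the range of the cultures for Mpo, at 732.5 and 686.9 FPKM, and for Elane, at 497.2 and 476.1 FPKM. For Ctsg they lay below the cultures, at 266.9 and 270.5 FPKM. Control replicate 3 was the lowest of the controls, at 176, 87.9 and 52.5 FPKM for the 3 genes. The summed level of 6 neutrophil markers in the controls was 1634, 1212 and 1529 FPKM, and that of 2 eosinophil markers 2030, 3727 and 31.5 FPKM. The part of such cells in the control levels was not tested. Ms4a3, a marker of granulocyte and monocyte progenitors, stood at 159.6, 356 and 318 against 1.66, 11.5 and 0.371 FPKM and Plac8 at 1280.0, 1525 and 1418 against 162, 55.5 and 50.2 FPKM. Both rose, by 6.21 ± 0.79 and 4.17 ± 0.45 (adjusted p = 0.00937 and 0.00555). Prtn3 stood at 969.6, 1720.0 and 1842 against 277, 48.7 and 353 FPKM, and Lyz2 at 294, 1969 and 1688 against 165, 79.5 and 125 FPKM. Both were above every rEC library in every culture but missed the threshold (adjusted p = 0.0514 and 0.0515). Srgn, the proteoglycan that packs granules, overlapped between the groups, at 651, 944 and 776 against 994, 238 and 653 FPKM.

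Late neutrophil granule genes had the widest spread among the cultures of all lists, with a median range of 2.91 on the log2 scale. Of 19 tested, 3 rose (Hp, Lcn2 and Mmp8), and 4 were called higher without rEC replicate 2. Hp, which binds free haemoglobin, stood at 143, 270.1 and 349.9 against 3.69, 0.962 and 0.598 FPKM and rose by 6.61 ± 0.51 (adjusted p = 0.00268, limma). Mmp8, the neutrophil collagenase, stood at 36.1, 63.4 and 73.3 against 1.54, 0.0489 and 0 FPKM, and rose by 5.34 ± 0.47 (adjusted p = 0.003). S100a8, a subunit of calprotectin, stood at 47.5, 1843 and 646 against 177, 3.67 and 2.45 FPKM, and its partner S100a9 at 21.8, 1395 and 328 against 110.2, 3.72 and 1.59 FPKM. Among antimicrobial genes, Camp stood at 0.195, 205 and 15.1 against 39.4, 0 and 0.752 FPKM, Ngp at 1.12, 213 and 16.9 against 48.4, 0.63 and 0.446 FPKM and Ltf at 0.0606, 34.9 and 3.73 against 9.05, 0 and 0.269 FPKM. FGRS KLS replicate 2 was the highest and replicate 1 the lowest for all 5 of these genes, and none passed over all 6 libraries (adjusted p = 0.144, 0.176, 0.546, 0.495 and 0.556). Csf3r, the receptor for granulocyte colony-stimulating factor, was not called, at 36.2, 29.4 and 26.5 against 31.1, 3.82 and 22.6 FPKM (adjusted p = 0.336).

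Genes for matrix and secreted proteins of macrophages rose in 13 of 19 cases and fell in 1, with a median difference of 2.69. The matrix and macrophage secreted genes called higher numbered 11, 4 and 4 when FGRS KLS replicate 1, 2 or 3 was left out, and 5, 14 and 6 when rEC replicate 1, 2 or 3 was. Spp1, which encodes the secreted phosphoprotein osteopontin (chr5:104435118-104441050, GENCODE vM21 on mm10), stood at 388, 3208 and 3055 against 2.21, 1.04 and 1.71 FPKM, a rise of 9.23 ± 0.80 (adjusted p = 0.003, limma), the largest of all genes called. Arg1, the arginase of alternatively activated macrophages, stood at 7.28, 120.0 and 213 against 0.264, 0 and 0.0671 FPKM, and the elastase Mmp12 at 11.8, 69.3 and 76.3 against 0.0142, 0 and 0 FPKM. Both were called higher, but both entered the comparison only through the cultures, so the calls only describe these levels. FGRS KLS replicate 1 was far below the other cultures for both. Tgfbi stood at 169, 457 and 393 against 17.9, 2.47 and 33.4 FPKM, and S100a4 at 256, 933 and 875 against 40.0, 3.85 and 57.2 FPKM. They rose by 4.58 ± 0.84 and 4.72 ± 0.98 (adjusted p = 0.0272 and 0.0363). The member that fell was Mmp14, a membrane-bound collagenase, at 1.74, 2.12 and 0.693 against 20.5, 33 and 45 FPKM, by 3.73 ± 0.39 (adjusted p = 0.00531). Plaur, the urokinase receptor, was not called, and its rEC libraries spanned both sides of the cultures, at 56, 92 and 83.8 against 134, 2.58 and 40.5 FPKM.

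Of 19 chemokine and cytokine genes 7 rose, and of 27 receptor genes 7 rose and 2 fell, Kit among them. The chemokine and cytokine genes called higher numbered 9, 0 and 0 when FGRS KLS replicate 1, 2 or 3 was left out, and 3, 11 and 1 when rEC replicate 1, 2 or 3 was. The chemokine and cytokine receptor genes called higher numbered 6, 3 and 3 when FGRS KLS replicate 1, 2 or 3 was left out, and 6, 12 and 7 when rEC replicate 1, 2 or 3 was. Receptor genes called lower numbered 3 without rEC replicate 2, 1 without FGRS KLS replicate 1 and 0 without any other library. Ccl6 stood at 29, 237 and 255 against 0.545, 4.95 and 0.797 FPKM, and Ccl9 at 79.7, 192 and 178 against 9.12, 0.765 and 9.12 FPKM. They rose by 5.58 ± 0.92 and 4.63 ± 0.73 (adjusted p = 0.0196 and 0.0173, limma). Of the Ccr2 ligands, Ccl2 stood at 9.46, 158 and 107 against 1.81, 3.72 and 0.99 FPKM. Ccl7 stood at 6.4, 139.5 and 76.2 FPKM in the cultures and was listed at 0 in all 3 rEC libraries, so no fold is given for it. Ccl2 was called at an adjusted p just under 0.05. Ccl7 entered the comparison only through the cultures, so its call only describes these levels. Tnf stood at 11, 22.1 and 23.1 against 3.88, 0.784 and 2.39 FPKM and rose by 2.61 ± 0.47 (adjusted p = 0.0255). Ccl3 and Ccl4, which rEC replicate 1 also expressed, at 75.7 and 85.5 FPKM, were not called (adjusted p = 0.113 and 0.221). Tgfb1 was at 157, 166 and 138 against 105, 93.8 and 89.2 FPKM and was not called either.

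Among receptors for inflammatory chemokines, Ccr1 stood at 9.13, 28.1 and 30.6 FPKM in the cultures and was under 0.1 FPKM in each rEC library. It rose by 4.29 ± 0.47 (adjusted p = 0.00577, limma). Csf2rb, the common beta chain of the receptors for GM-CSF, IL-3 and IL-5, stood at 42.9, 48 and 57 against 7.8, 2.09 and 3.12 FPKM, and the decoy receptor Il1r2 at 30.6, 30.3 and 28.5 against 1.76, 0.578 and 3.22 FPKM. Both rose (adjusted p = 0.00877 and 0.00577). Cxcr4, the receptor for the niche chemokine Cxcl12, was not called over all 6 libraries, at 71.1, 75.6 and 59.4 against 52, 12.8 and 36.8 FPKM (adjusted p = 0.166). It was called higher without rEC replicate 2, by 0.63 (adjusted p = 0.0378).

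Part of the adhesion and innate defence genes rose as well. Of 21 integrin and adhesion genes 10 rose and none fell, and 4 were called lower without rEC replicate 2 (Esam, Itgb3, Itga6 and Jam3). The integrin and adhesion genes called higher numbered 3, 1 and 1 when FGRS KLS replicate 1, 2 or 3 was left out, and 6, 11 and 5 when rEC replicate 1, 2 or 3 was. Itgb2, the beta chain that pairs with CD11b, stood at 84.8, 174 and 166 against 17.8, 14.3 and 21.4 FPKM and rose by 2.87 ± 0.34 (adjusted p = 0.00783, limma). Itgb1, the widely used beta chain, stood at 95.5, 97.3 and 85.8 against 70.3, 65.2 and 63.9 FPKM. It was not called over all 6 libraries but was called without rEC replicate 2. Its partner Itga4 stood at 42.9, 13.5 and 15.3 against 31.3, 35.7 and 28.5 FPKM and was called in neither setting. Of 16 toll-like receptor and sensor genes 6 rose. The toll-like receptor and innate sensor genes called higher numbered 4, 1 and 1 when FGRS KLS replicate 1, 2 or 3 was left out, and 2, 8 and 4 when rEC replicate 1, 2 or 3 was. Their largest rise was that of Cd14, the lipopolysaccharide co-receptor, at 28.8, 127 and 112 against 1.19, 2.53 and 3.4 FPKM and a rise of 4.54 ± 0.60 (adjusted p = 0.0103). Nlrp3, an inflammasome sensor, stood at 8.28, 13.9 and 12.5 against 0, 0.346 and 0 FPKM and rose by 3.48 ± 0.33 (adjusted p = 0.00357). Of the 6 phagocyte oxidase genes 4 rose (Cyba, Cybb, Ncf1 and Ncf4), but 1 without FGRS KLS replicate 2 or without replicate 3. Cybb, the catalytic subunit, stood at 40.0, 58.8 and 55.8 against 1.85, 2.79 and 0.583 FPKM and rose by 4.33 ± 0.38 (adjusted p = 0.003), while the GTPase Rac2 was not called (adjusted p = 0.237).

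**Figure D3:**
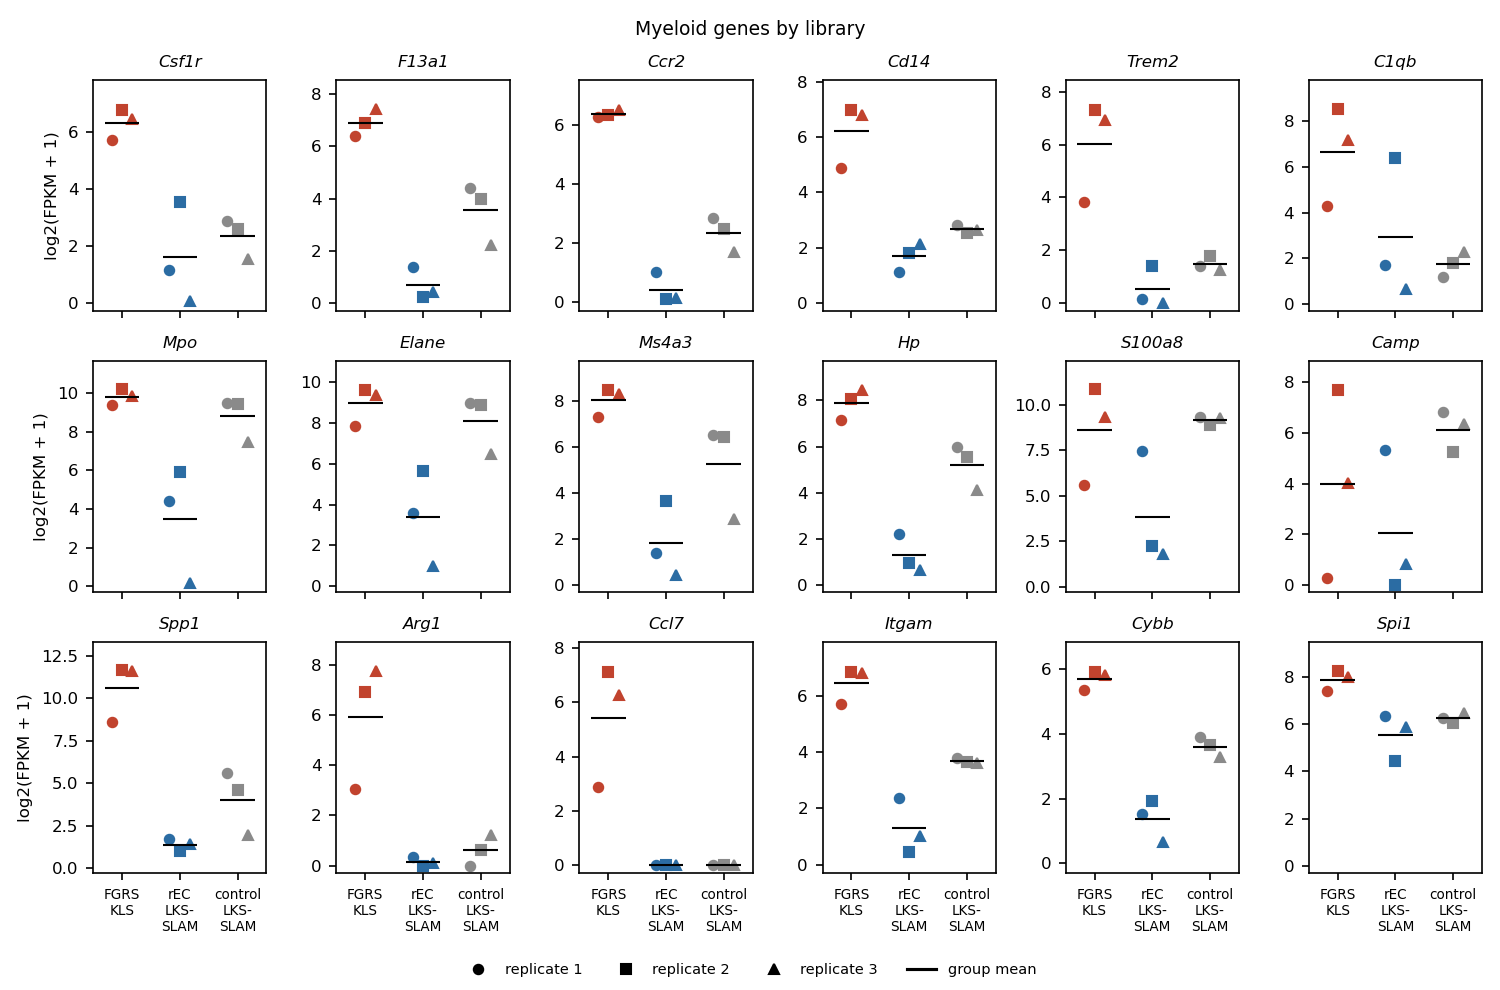
Levels of 18 myeloid genes as log2(FPKM + 1) (y axis, 1 panel per gene) in FGRS KLS (red), rEC LKS-SLAM (blue) and control LKS-SLAM (grey) libraries, with symbols for replicates and lines at group means. The 3 cultures lie above every rEC library for Csf1r, F13a1, Ccr2, Cd14, Trem2, Mpo, Elane, Ms4a3, Hp, Spp1, Arg1, Ccl7, Itgam, Cybb and Spi1, and overlap them for C1qb, S100a8 and Camp.

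Stem cell transcription factors were lower in the cultured cells. Of 23 tested, none rose and 7 fell over all 6 libraries (among them Mycn, Gata2, Tal1 and Gfi1b), and all 23 were called lower without rEC replicate 2. The median difference was -2.60. Of all genes compared, 2.86% were called lower over all 6 libraries and 31.6% without rEC replicate 2. The stem cell transcription factors called lower numbered 3, 1 and 1 when FGRS KLS replicate 1, 2 or 3 was left out, and 1, 23 and 3 when rEC replicate 1, 2 or 3 was. Gata2 stood at 23.3, 7.34 and 10.0 FPKM in FGRS KLS cells and 274, 54 and 361 FPKM in rEC LKS-SLAM cells, with 228 FPKM in the controls, and fell by 3.75 ± 0.75 (adjusted p = 0.0334, limma). Tal1 (chr4:115056426-115071755, GENCODE vM21 on mm10), a basic helix-loop-helix factor that specifies blood, stood at 6.98, 3.19 and 2.96 against 44.9, 67.3 and 64 FPKM and fell by 3.53 ± 0.36 (adjusted p = 0.00454). For Tal1 all 3 rEC libraries lay together, and the call held with any single library left out. Mycn stood at 0.932, 0.658 and 0.0886 against 41.2, 12.2 and 162 FPKM and fell by 4.89 ± 0.85 (adjusted p = 0.0225). Among factors of stem cell self-renewal, Meis1 stood at 16.9, 6.02 and 7.21 against 105, 18 and 113 FPKM, Mecom at 6.25, 1.83 and 1.49 against 47.2, 4.22 and 62.2 FPKM and Hlf at 7.9, 2.02 and 1.79 against 102, 11 and 83.3 FPKM. They were not called over all 6 libraries (adjusted p = 0.0771, 0.119 and 0.0587), and rEC replicate 2 lay close to the cultures for each. Without it, a setting chosen from the values, they were called lower, with differences of -3.45, -3.90 and -4.47 (adjusted p = 0.000601, 0.000728 and 0.000565).

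Stem cell receptors and enzymes showed the same division, against the same 2.86% and 31.6% of all genes called lower. Of 27 tested, 6 fell and none rose over all 6 libraries (among them Aldh1a1, Vwf, Pdzk1ip1 and Eng), and 21 were called lower without rEC replicate 2. The stem cell receptors and enzymes called lower numbered 2, 1 and 1 when FGRS KLS replicate 1, 2 or 3 was left out, and 1, 21 and 1 when rEC replicate 1, 2 or 3 was. Aldh1a1, a retinaldehyde dehydrogenase (chr19:20492715-20643465, GENCODE vM21 on mm10), stood at 3.09, 1.34 and 1.45 against 143, 55.1 and 183 FPKM, with 109.7 FPKM in the controls, and fell by 5.32 ± 0.49 (adjusted p = 0.00341, limma), and this call held with any single library left out. Procr, the endothelial protein C receptor by which stem cells are often sorted, stood at 5.8, 13.5 and 26.2 against 116, 7.52 and 154 FPKM. Fgd5 stood at 0.397, 0.229 and 0.13 against 21.2, 0.0305 and 29.4 FPKM, and Sult1a1 at 0.791, 0.126 and 0.514 against 155, 3.77 and 552 FPKM. For Procr, Fgd5 and Sult1a1 rEC replicate 2 was far below the other rEC libraries, and the genes were not called with it (adjusted p = 0.278, 0.176 and 0.0717). Without it the differences were -3.28, -4.38 and -7.66 (adjusted p = 0.00217, 0.000129 and 0.000155). The progenitor marker Cd34 stood at 212, 85.3 and 70.1 against 191, 38.8 and 18.9 FPKM and the cytokine receptor Flt3 at 56.1, 15.1 and 12.7 against 77, 7.21 and 14 FPKM, and neither was called in either setting. The interferon-induced membrane gene Ifitm1 was the member called higher without rEC replicate 2, by 0.88 (adjusted p = 0.0184).

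Hox cluster genes and their cofactors were seldom called over all 6 libraries, but were called lower without rEC replicate 2, as were 31.6% of all genes compared. Of 18 tested, 1 fell over all 6 libraries, none was called with another library left out and all 18 were called lower without rEC replicate 2, with median differences of -1.95 and -2.76. The fit over all 29 grouped libraries, which keeps that library but may take too small a spread, called 15 of them lower. Hoxb5 stood at 0.5, 0.173 and 0.375 against 10.2, 1.23 and 24.1 FPKM, and Hoxb8 at 0.11, 0.03 and 0.0289 against 8.14, 0.0901 and 19.6 FPKM. Hoxa9, the Hox gene with the highest level in the rEC libraries, stood at 19.3, 13.1 and 15.6 against 44.1, 12.1 and 48.4 FPKM. For Hoxa9 the cultures lay above rEC replicate 2 and below the other 2 rEC libraries.

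**Figure D4:**
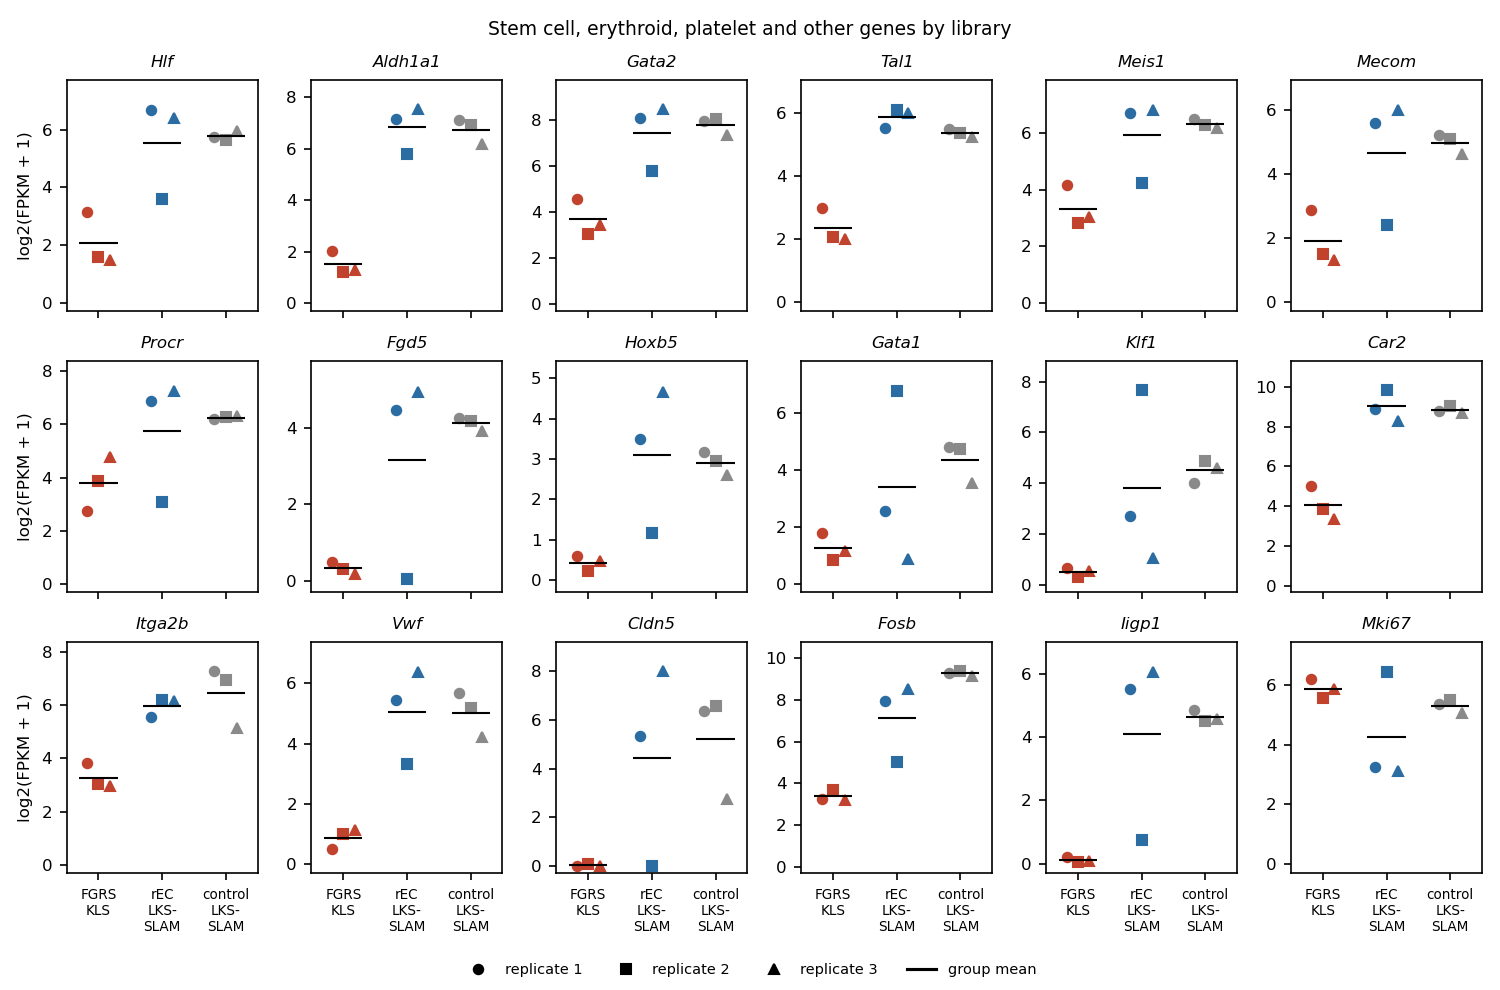
Levels of 18 genes of stem cells, erythroid cells, platelets, endothelium, early response, interferon response and proliferation as log2(FPKM + 1) (y axis, 1 panel per gene), with colours for the 3 groups, symbols for replicates and lines at group means. The square of rEC replicate 2 lies near or within the cultures for Mecom, Procr, Fgd5, Cldn5, Iigp1 and Mki67, with the other rEC libraries for Tal1 and Itga2b, and far above both groups for Gata1 and Klf1.

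Platelet and erythroid genes were lower in the cultures as well. Of all genes compared, 2.86% were called lower over all 6 libraries and 31.6% without rEC replicate 2. Of 15 megakaryocyte and platelet genes 10 fell and 1 rose, and 3 were called higher without rEC replicate 2. The megakaryocyte and platelet genes called lower numbered 3, 0 and 0 when FGRS KLS replicate 1, 2 or 3 was left out, and 3, 11 and 3 when rEC replicate 1, 2 or 3 was. Of the platelet surface glycoproteins, Itga2b stood at 13, 7.18 and 6.86 against 45.6, 72.5 and 70.1 FPKM and Gp9 at 4.44, 3.69 and 2.6 against 21.9, 22.6 and 37.4 FPKM. The control means were 102 and 34.8 FPKM. The genes fell by 2.69 ± 0.33 and 2.61 ± 0.32 (adjusted p = 0.00877 and 0.00877, limma). The gene that rose, Thbs1, is also made by macrophages, and stood at 9.04, 25.4 and 46.4 against 1.05, 1.8 and 2.31 FPKM, a rise of 3.12 ± 0.57 (adjusted p = 0.0261). The platelet chemokine gene Pf4 was highest in FGRS KLS replicates 2 and 3 and rEC replicate 2, at 58.2, 818 and 665 against 37.8, 456 and 21.2 FPKM, and was not called over all 6 libraries (adjusted p = 0.329). Of 27 erythroid genes 6 fell (Hba-a1, Car2, Aqp1, Zfpm1, Hemgn and Gfi1b). The erythroid genes called lower numbered 3, 2 and 2 when FGRS KLS replicate 1, 2 or 3 was left out, and 2, 17 and 6 when rEC replicate 1, 2 or 3 was. Car2, a carbonic anhydrase, stood at 32, 13.5 and 9.38 against 476, 924 and 307 FPKM and fell by 4.92 ± 0.55 (adjusted p = 0.00578), and Zfpm1, the Gata1 partner, at 11.3, 7.55 and 5.03 against 134, 109.6 and 100.0 FPKM, by 3.74 ± 0.32 (adjusted p = 0.003). Both calls held with any single library left out.

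The erythroid regulators set rEC replicate 2 apart from all other compared libraries. Gata1 stood at 2.42, 0.755 and 1.23 against 4.84, 108 and 0.805 FPKM, and Klf1 at 0.578, 0.22 and 0.451 against 5.49, 201 and 1.06 FPKM. Car1 reached 1914 FPKM in rEC replicate 2, against 15.2 and 1.81 FPKM in the others. The globin genes Hba-a1, Hbb-b1, Hba-a2 and Hbb-bs were listed at 0 in all 3 cultures. In the rEC libraries Hba-a1 stood at 193, 35.1 and 4.89 FPKM, and the paralogs share most of their sequence, so the split between them is uncertain. Tfrc, the transferrin receptor of iron-hungry cells, was at 116, 50.7 and 54.3 against 14.9, 118 and 10.4 FPKM and was called higher without rEC replicate 2 (adjusted p = 0.00212, limma).

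Markers of some other cell types were present in the cultures. All 4 mast cell and basophil markers reached 1 FPKM in each culture, with a summed level of 61.3, 90.7 and 76.7 FPKM, against 5.61, 18.5 and 0.889 FPKM in the rEC libraries and 331, 245 and 9.01 FPKM in the controls. Of 12 mast cell and basophil genes 2 rose over all 6 libraries, 1 without FGRS KLS replicate 2 or without replicate 3 and 9 without rEC replicate 2, where 1 was called lower. The 2 were Mcpt8 at 39.6, 65.3 and 46.5 against 0.0748, 1.64 and 0.134 FPKM and Hdc at 6.97, 8.15 and 8.04 against 0.79, 1.13 and 0.0973 FPKM (adjusted p = 0.003 and 0.0126, limma). Of 5 eosinophil genes none was called (1 at an unadjusted p under 0.05), and Prg2 stood at 2.85, 55.7 and 10.8 against 3.07, 311 and 0.873 FPKM. Of 18 class II and dendritic cell genes 1 rose, Itgax, at 13.6, 9.28 and 7.2 against 0.835, 0.36 and 0.0447 FPKM (adjusted p = 0.00877). Class II genes themselves were not called, with Cd74 at 293, 281 and 217 against 607, 71.7 and 241 FPKM, and 5 list members were called higher and 7 lower without rEC replicate 2. Of B cell genes 1 of 11 (Blnk) and 2 of 10 T and NK cell genes (Il7r and Gzmb) rose (adjusted p = 0.0415, 0.0332 and 0.0187). Without rEC replicate 2, 3 B cell genes were called higher, and 2 T and NK cell genes higher and 3 lower. The shares called of all genes compared were 7.12% over all 6 libraries and 53.8% without rEC replicate 2. Of 4 B cell markers 2, 3 and 3 reached 1 FPKM in the cultures, with a summed level of 13.1, 18.1 and 9.24 FPKM, against 14.9, 4.16 and 1.39 FPKM in the rEC libraries. Of T cell genes that define the lineage, Cd3e stood near 0 in the cultures, at 0.0312, 0 and 0.114 FPKM and Cd4 at 0.492, 0.127 and 0.208 FPKM. The part of such cells in the other results was not tested.

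Most endothelial genes were no higher in the cultures than in the rEC libraries. The cultures grew with HUVEC, which are human, while reads were handled on mm10, the mouse genome. These levels therefore cannot show whether HUVEC were carried over. Of 17 tested, 2 fell (Tie1 and Eng) and 1 rose (Stab1, a scavenger receptor that macrophages share). Without rEC replicate 2, 12 were called lower, against 31.6% of all genes compared. Cdh5, the vascular cadherin, was at 0.61, 0.261 and 0.215 FPKM in the cultures and at 0.102, 0.277 and 0.305 FPKM in the rEC libraries. Cldn5 stood at 0, 0.0605 and 0 FPKM against 39, 0 and 255 FPKM, and at 60.4 FPKM in the controls. Tie1 stood at 4.36, 3.17 and 1.84 against 84.4, 15.5 and 108 FPKM and fell by 3.75 ± 0.71 (adjusted p = 0.0287, limma). Of 16 stromal genes 12 did not reach 1 FPKM in a second library, with Col1a1 under 0.5 FPKM in each of the 6 libraries, and none of 4 tested was called by limma (1 at an unadjusted p under 0.05, and 2 called lower without rEC replicate 2). Vcam1, an adhesion gene on that list, stood at 0.862, 69.5 and 0.616 FPKM in the rEC libraries and under 1 FPKM in each culture.

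Cholesterol synthesis genes were higher in the cultures in every member. Of 19 tested, 13 rose and none fell, and in all 19 each FGRS KLS library was above each rEC library, against 13.6% of all genes compared. The other 6 were called without rEC replicate 2. The cholesterol synthesis genes called higher numbered 7, 2 and 0 when FGRS KLS replicate 1, 2 or 3 was left out, and 6, 19 and 6 when rEC replicate 1, 2 or 3 was. Fdps, which makes farnesyl diphosphate, stood at 211, 313 and 279 against 15.7, 38.6 and 9.42 FPKM and rose by 3.80 ± 0.49 (adjusted p = 0.00949, limma). Hmgcs1, an early enzyme of the pathway, stood at 55.7, 41.2 and 49.6 against 6.67, 8.8 and 6.36 FPKM and rose by 2.59 ± 0.26 (adjusted p = 0.00427). The control means of these genes were 21.1 and 7.55 FPKM, near those of the rEC libraries. The Hmgcs1 promoter window (chr13:119690101-119690400, forward strand) is shown because it is the only one of 14 list members with a window that holds the sterol element, in capitals, starting at 137 bases before the gene start. That element was present for 1.38% of the compared genes and for 2.6% of those called higher and 1.54% of those called lower, or 1.74% and 1.6% without rEC replicate 2.
Hmgcs1: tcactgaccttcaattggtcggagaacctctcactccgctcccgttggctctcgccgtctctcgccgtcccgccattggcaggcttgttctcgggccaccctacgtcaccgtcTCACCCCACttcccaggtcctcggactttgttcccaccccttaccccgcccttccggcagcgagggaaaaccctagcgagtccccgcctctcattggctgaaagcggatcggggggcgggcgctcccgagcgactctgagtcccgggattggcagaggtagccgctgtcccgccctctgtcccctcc
Of 19 genes of lipid uptake, export and fatty acids, 2 rose and 2 fell over all 6 libraries, and 7 were called higher and 2 lower without rEC replicate 2. With another library left out 1 or 2 were called higher and none lower. Of all genes compared, 7.12% were called over all 6 libraries and 53.8% without rEC replicate 2. The lipid droplet gene Plin2 stood at 182, 474 and 547 against 23.8, 23.1 and 17.2 FPKM. It rose by 4.03 ± 0.44 (adjusted p = 0.00555, limma). Of the cholesterol exporters, Abcg1 stood at 0.411, 0.638 and 1.04 against 13.5, 4.08 and 11.5 FPKM and Abca1 at 0.145, 0.825 and 0.401 against 4.13, 2.3 and 5.36 FPKM. They fell by 2.53 ± 0.46 and 1.73 ± 0.38 (adjusted p = 0.0253 and 0.0407).

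Glycolysis and hypoxia genes rose in 17 of 24 cases, and none fell, with a median difference of 2.16. The glycolysis and hypoxia genes called higher numbered 10, 5 and 5 when FGRS KLS replicate 1, 2 or 3 was left out, and 11, 19 and 12 when rEC replicate 1, 2 or 3 was. Of the lower glycolytic pathway, Pgk1 stood at 1033, 1392 and 1289 against 143, 179 and 108 FPKM and Eno1 at 763, 848 and 878 against 89.3, 114 and 62.2 FPKM. They rose by 3.12 ± 0.28 and 3.26 ± 0.28 (adjusted p = 0.003 and 0.003, limma). Slc16a3, which exports lactate, stood at 156, 219 and 283 against 4.37, 2.55 and 2.67 FPKM, a rise of 5.70 ± 0.32 (adjusted p = 0.00121). The calls of Pgk1, Eno1, Pgam1, Aldoa and Slc16a3 held with any single library left out. Ldha, the lactate dehydrogenase, stood at 1524, 1798 and 1759 against 375, 706 and 391 FPKM and rose by 1.84 ± 0.31 (adjusted p = 0.021). Bnip3, a mitophagy gene induced by hypoxia, rose as well, at 104, 139 and 142 against 18.5, 4.25 and 15.7 FPKM (adjusted p = 0.0146).

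Of 26 unfolded protein and amino acid stress genes 10 rose and none fell, and 20 were called higher without rEC replicate 2. The unfolded protein and amino acid stress genes called higher numbered 5, 3 and 2 when FGRS KLS replicate 1, 2 or 3 was left out, and 5, 20 and 6 when rEC replicate 1, 2 or 3 was. Slc7a11, the cystine transporter, stood at 15.8, 15.8 and 23.9 against 0.0322, 0 and 0.194 FPKM, and Cth, which makes cysteine, at 39.7, 11.8 and 28.8 against 0, 0.138 and 0 FPKM. They rose by 4.16 ± 0.30 and 4.58 ± 0.46 (adjusted p = 0.00228 and 0.00436, limma). The endoplasmic reticulum chaperone Hspa5 stood at 646, 606 and 719 against 193, 195 and 109.8 FPKM and rose by 2.02 ± 0.29 (adjusted p = 0.0135). Asns and Mthfd2, for asparagine and mitochondrial folate metabolism, were high in the cultures and in rEC replicate 2. Asns stood at 139, 93 and 106 against 6.31, 119 and 9.07 FPKM and Mthfd2 at 121, 91.6 and 102 against 1.75, 56.5 and 1.79 FPKM. They were not called over all 6 libraries but were called without rEC replicate 2 (adjusted p = 0.000148 and 6.12e-05). That library also had mitosis genes at the level of the cultures, whose part in these values was not tested. Pycr1, an enzyme of proline synthesis, rose by 1.59 ± 0.37, from 0.463, 1.24 and 0.962 to 7.25, 3.47 and 3.75 FPKM (adjusted p = 0.0488). Its promoter window (chr11:120643699-120643998, reverse strand) is shown as the called member with the ATF4 element, in capitals, starting at 103 bases before the gene start, an element present for 0.539% of the compared genes, 3 of 385 called higher and 3 of 260 called lower.
Pycr1: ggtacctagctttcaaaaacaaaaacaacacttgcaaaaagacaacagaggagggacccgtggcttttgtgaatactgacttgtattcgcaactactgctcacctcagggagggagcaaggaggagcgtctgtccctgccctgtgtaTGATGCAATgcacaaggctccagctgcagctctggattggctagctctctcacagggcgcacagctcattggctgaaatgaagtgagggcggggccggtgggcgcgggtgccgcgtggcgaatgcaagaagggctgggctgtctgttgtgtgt
Of 10 heat shock genes limma called none over all 6 libraries, with 4 at an unadjusted p under 0.05, and 8 higher and 1 lower without rEC replicate 2. Hspa8 stood at 2189, 2035 and 2166 against 901, 2203 and 656 FPKM.

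Lysosome genes rose in 14 of 26 cases, with none lower and a median difference of 1.62. The lysosome genes called higher numbered 16, 0 and 0 when FGRS KLS replicate 1, 2 or 3 was left out, and 1, 21 and 3 when rEC replicate 1, 2 or 3 was. Among cathepsins, Ctss stood at 138, 405 and 375 against 21.4, 28.4 and 6.22 FPKM and Ctsz at 319, 565 and 566 against 53.6, 75.3 and 38.3 FPKM. They rose by 4.04 ± 0.63 and 3.10 ± 0.35 (adjusted p = 0.0167 and 0.00649, limma). Psap, the precursor of the saposins, stood at 758, 1685 and 1928 FPKM in the cultures, above every rEC library, and rose by 2.70 ± 0.40 (adjusted p = 0.0142). Of 19 iron and oxidative stress genes 5 rose and 1 fell, against 4.26% and 2.86% of all genes compared. The iron and oxidative stress genes called higher numbered 2, 0 and 0 when FGRS KLS replicate 1, 2 or 3 was left out, and 0, 10 and 0 when rEC replicate 1, 2 or 3 was. Ftl1, the ferritin light chain, stood at 3360.0, 7832 and 8780.0 against 1640.0, 1507 and 1107 FPKM and rose by 2.13 ± 0.42 (adjusted p = 0.0323). Hmox1, which breaks down haem, stood at 203, 309.9 and 688 against 13.1, 85.6 and 5.2 FPKM, a rise of 4.17 ± 0.95 (adjusted p = 0.0475). The metallothionein gene Mt2 was the one that fell, at 12.6, 9.85 and 15.2 against 76.5, 515 and 305 FPKM, by 4.11 ± 0.66 (adjusted p = 0.0181).

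Few immediate early and interferon response genes were called over all 6 libraries, and most were called lower without rEC replicate 2. Without that library 31.6% of all genes compared were called lower. The fit over all 29 grouped libraries keeps that library but may take too small a spread. It called 11 immediate early and 26 interferon response genes lower, and 1 of each list higher. Of 24 immediate early genes 1 fell over all 6 libraries (Fosb), while 19 were called lower and 1 higher (Atf3) without rEC replicate 2. Egr1 stood at 34, 9.4 and 13.8 FPKM in the cultures and 1224, 34.5 and 1002 FPKM in the rEC libraries, with 1302 FPKM in the controls. Its difference was -4.33 ± 1.32 (adjusted p = 0.0905, limma), and -5.98 without rEC replicate 2 (adjusted p = 0.000201). That library lay just above the cultures for Egr1, and below them for Fos, at 75.6, 112 and 95.5 against 1364, 57.7 and 1525 FPKM, and Zfp36, at 103, 109 and 118 against 1622, 80.3 and 1647 FPKM. Of 36 interferon response genes 4 fell (Cmpk2, Irgm1, Ifit2 and Oasl1), and 31 were called lower and 1 higher without rEC replicate 2. Irgm1, an interferon-induced GTPase, stood at 7.91, 6.53 and 6.38 against 46.5, 16.4 and 50.5 FPKM and fell by 2.14 ± 0.44 (adjusted p = 0.0361). Iigp1, of the same family, stood at 0.154, 0.0401 and 0.0645 against 44.3, 0.664 and 65.1 FPKM, and was not called with all 6 libraries (adjusted p = 0.105). It was called lower without rEC replicate 2, with a difference of -5.66 (adjusted p = 0.000119). Of 14 class I antigen presentation genes 8 were called lower without rEC replicate 2, none with another library left out and 1 over all 6 libraries, H2-Q7, at 29.4, 22.1 and 21.4 against 312, 73.8 and 306 FPKM (adjusted p = 0.0293). Its copies in the Q region are near-identical, so the split is uncertain. H2-K1, a classical class I gene, stood at 579.5, 657 and 649 against 1693, 408 and 1859 FPKM.

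**Figure D5:**
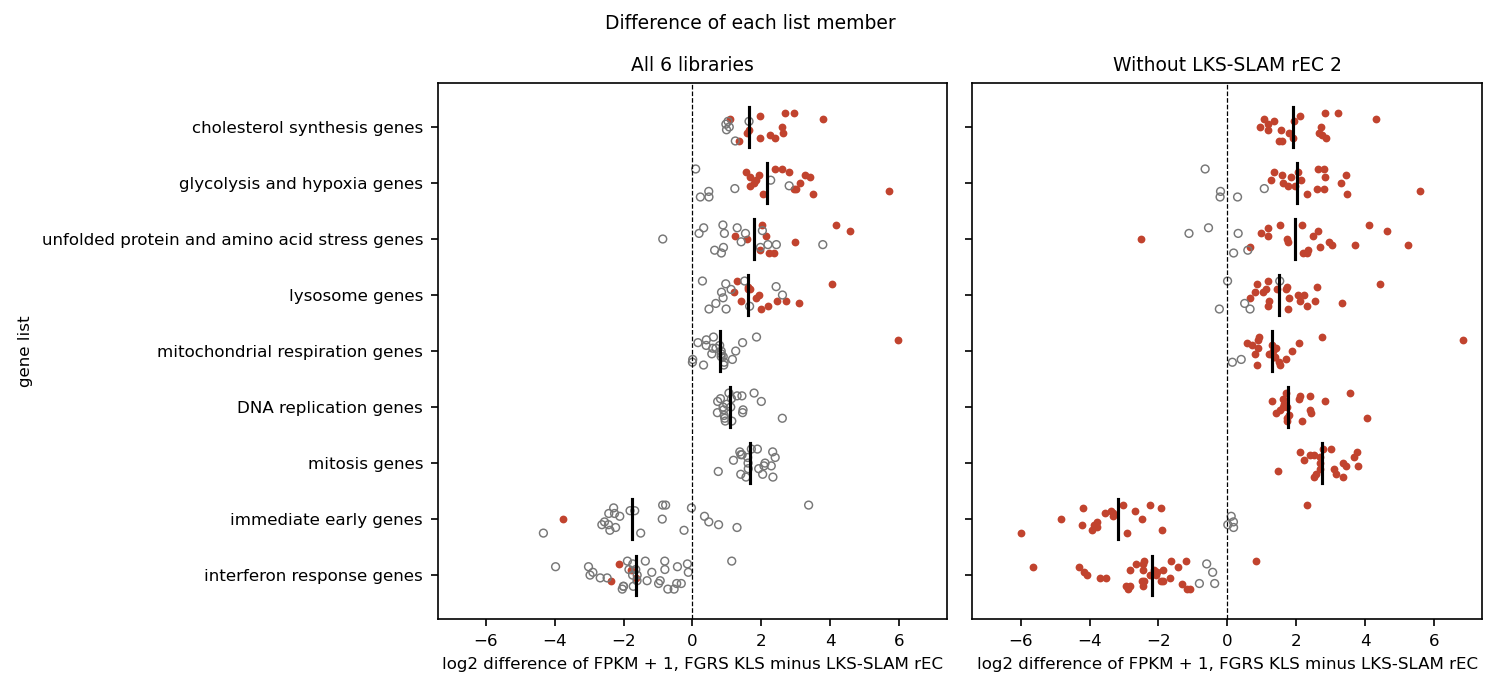
Difference of log2(FPKM + 1) between FGRS KLS and rEC LKS-SLAM cells (x axis) of each member of 9 gene lists (rows), over all 6 libraries (left) and without rEC replicate 2 (right). Filled points were called at an adjusted p under 0.05, open points were not, and bars are medians, so the 20 DNA replication and 20 mitosis genes are open on the left and filled on the right.

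Genes of proliferation showed the same dependence. None of 20 DNA replication and none of 20 mitosis genes was called over all 6 libraries by limma, and 1 and 2 of them had an unadjusted p under 0.05. All 40 were called higher without rEC replicate 2, against 22.2% of all genes compared. The fit over all 29 grouped libraries, which keeps that library but may take too small a spread, called 13 DNA replication and 19 mitosis genes higher. Mki67, the proliferation antigen, stood at 72, 46.5 and 57 FPKM in the cultures and 8.6, 85 and 7.65 FPKM in the rEC libraries, with 38.7 FPKM in the controls. Rrm2, the ribonucleotide reductase subunit of S phase, stood at 169.7, 154 and 138 against 11.1, 188 and 6.03 FPKM, and the kinase Plk1 at 51.8, 58.3 and 56.9 against 3.59, 89.3 and 4.81 FPKM. Their differences without rEC replicate 2 were 2.68, 4.06 and 3.45 (adjusted p = 0.000245, 0.000137 and 0.000121, limma). At an adjusted p of 0.247, 0.181 and 0.235 the 6 libraries do not show that the groups were alike. Cdkn1c, an inhibitor of quiescent stem cells, had the mirror order, at 0.407, 1.16 and 1.36 against 33.4, 0.841 and 41 FPKM, and was called lower without rEC replicate 2, with a difference of -4.30 (adjusted p = 0.000162). Of 22 mitochondrial respiration genes 20 were called higher without rEC replicate 2, against 22.2% of all genes compared. Over all 6 libraries 1 rose, which is near the 4.26% of all genes called higher. That gene, Cox6a2, an isoform of cytochrome oxidase best known from muscle, stood at 147, 93.5 and 108 against 0, 5.03 and 0 FPKM and rose by 5.98 ± 0.70 (adjusted p = 0.00727).

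Of 11 Bcl2 family genes 3 rose over all 6 libraries, all of them promoters of apoptosis. Without rEC replicate 2, 7 were called higher and 1 lower, and with another library left out 1 or 2 were called higher. Pmaip1 (Noxa) stood at 66.9, 52.2 and 55.6 against 1.38, 0.0674 and 0.244 FPKM and rose by 5.33 ± 0.37 (adjusted p = 0.00221, limma), and Bbc3 (Puma) and Bcl2l11 (Bim) rose too, with Bbc3 at 19.3, 22.9 and 22.9 against 9.42, 4.12 and 7.54 FPKM (adjusted p = 0.0384 and 0.0442). The survival gene Mcl1 was not called over all 6 libraries, at 118, 157 and 147 against 325, 61.4 and 336 FPKM. None of 8 DNA methylation enzymes, 8 imprinted genes, 6 E protein and Id genes and 13 cell cycle inhibitors and D cyclins was called by limma over all 6 libraries, and 1, 2, 1 and 2 of them had an unadjusted p under 0.05. Without rEC replicate 2, 2 methylation enzymes were called higher and 1 lower, 5 imprinted genes lower, 2 E protein and Id genes lower, and 4 cell cycle genes higher and 2 lower. In that setting 53.8% of all genes compared were called. Dnmt3l, a cofactor of DNA methylation best known from germ cells, is on none of these lists, and was called with any single library left out, at 7.86, 15.5 and 13.2 against 0.165, 0.239 and 0.186 FPKM, a rise of 3.42 ± 0.33 (adjusted p = 0.0041).

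The 73 genes whose call survived each left-out library held further members on no list, chosen here after their values were seen. Olfm1, a secreted glycoprotein, stood at 40.6, 53.9 and 51.5 against 0.952, 1.06 and 1.51 FPKM and rose by 4.51 ± 0.27 (adjusted p = 0.0014, limma). Emb, a chaperone of monocarboxylate transporters, was almost even within each group, at 378, 373 and 366 against 51, 41.3 and 39.2 FPKM, and rose by 3.07 ± 0.22 (adjusted p = 0.00221). Bcat1, which degrades branched-chain amino acids, stood at 12.3, 7.91 and 9.46 against 0, 0 and 0.0112 FPKM, and Clec5a, a myeloid lectin, at 26.9, 36.3 and 34.8 against 0.0682, 0 and 0 FPKM. Bcat1 and Clec5a entered the comparison only through the cultures. Among the 13 lower genes were Bex4, at 1.73, 1.65 and 1.34 against 28.7, 33.9 and 40.0 FPKM, Sdsl, a serine dehydratase-like enzyme, at 9.18, 7 and 6.1 against 85.8, 73.5 and 115 FPKM, and the urea transporter Slc14a1, at 1.28, 0.558 and 0.701 against 23.7, 46.3 and 24.2 FPKM. They fell by 3.76 ± 0.26, 3.45 ± 0.28 and 4.08 ± 0.36 (adjusted p = 0.00221, 0.003 and 0.003).

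Other genes with large falls over all 6 libraries were Sdpr, a caveolar protein, Clca3a1, the carboxylesterase Ces2g, Mmrn1, a platelet and endothelial multimerin, Fhl1 and Shank3. Sdpr stood at 0.202, 0.205 and 0.0619 against 51.9, 13.1 and 86.8 FPKM and fell by 5.12 ± 0.64 (adjusted p = 0.00921, limma). Shank3 stood at 1.94, 1.03 and 0.541 against 39.1, 19.2 and 64.2 FPKM and fell by 4.16 ± 0.48 (adjusted p = 0.00692). Large rises included the galectins. Lgals3 stood at 153, 806 and 826 against 2.79, 7.05 and 1.45 FPKM, and Lgals1 at 604, 1174 and 1198 against 15.4, 26.6 and 7.36 FPKM. They rose by 6.79 ± 0.74 and 5.93 ± 0.49 (adjusted p = 0.0056 and 0.003). Dmkn, dermokine, Gpnmb, a glycoprotein of phagocytes, and Adam8, a myeloid metalloprotease, also rose by 6.29 ± 0.55, 5.92 ± 0.80 and 6.01 ± 0.62 (adjusted p = 0.003, 0.0105 and 0.005). Further genes with large differences without rEC replicate 2 were Fcgr3, an immunoglobulin receptor, called higher, and Clec1a, Tmem158 and Trim47, called lower. Fcgr3 stood at 30.1, 159.9 and 139 against 0, 14 and 0.0371 FPKM, and its difference without that library was 6.45 (adjusted p = 0.000456). Clec1a stood at 0, 0.0836 and 0.0231 against 29.5, 0.844 and 88 FPKM, with a difference of -5.65 (adjusted p = 0.0002). A total of 36 genes were listed at 0 in all rEC libraries and 45 in all cultures. Of the first, F7, coagulation factor VII, stood at 3.56, 21.8 and 42.3 FPKM in the cultures and Saa3, an acute phase protein, at 2.59, 78.9 and 70.8 FPKM. Both entered the comparison only through the cultures, so no p is given for them. A listed 0 can also be a failed estimate.

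For 2520 genes (19.9%) the 95% interval of the difference lay inside -1 to 1. The 10 with the highest level were 8 ribosomal protein genes, Eef1a1 and Tpt1. Eef1a1, an elongation factor, stood at 5733, 5918 and 4921 against 7248, 5558 and 6966 FPKM, a difference of -0.25 with an interval of -0.89 to 0.39. Of 81 ribosomal protein genes, a group chosen after the values were seen, limma called none, 1 had an unadjusted p under 0.05 and 68 had such an interval, with a median difference of -0.06. At an unadjusted p under 0.05, 3603 genes differed.

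Within the groups the genes that varied most followed the library differences. Among the 3 rEC libraries the largest ranges of log2(FPKM + 1), in genes that reached 20 FPKM, were those of Car1, Cldn5, Prg2, Socs3, Hba-a2, Sult1a1, Sphk1 and Hbb-b1. Car1, Prg2 and Sphk1 were highest in replicate 2. Cldn5, Socs3 and Sult1a1 were lowest there, with Socs3, an inhibitor of cytokine signalling, at 112, 0.546 and 233 FPKM. Of the 2804 genes called higher without rEC replicate 2, that library lay nearer to the mean of the cultures than to the mean of the other rEC libraries for 1747 (62.3%), and of the 3996 called lower for 2981 (74.6%). These genes were picked for a gap between the cultures and the other rEC libraries. The share for another left-out library was not computed, so these shares have no reference. Among the 3 cultures the largest ranges included those of Camp, Ngp, S100a9, S100a8, Ltf and Arg1, lowest in replicate 1. Replicate 1 instead had the highest level of the cultures for Flt3, for Dntt, which lymphoid progenitors express, at 79.5, 21.7 and 16.1 FPKM, and for Jchain, at 203, 48.5 and 37.2 FPKM. Whether the cultures were sampled at separate times is not stated.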

How the data were processed

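RNA was extracted from sorted mouse cells, and libraries were made with a non-stranded poly-A kit and sequenced as paired 51 bp reads, per the labels' protocols. Per the submitters' processing notes, reads were handled on mm10 with TopHat2 2.1.0 and Cufflinks 2.2.1, and bcl2fastq 2.17, Trimmomatic 0.36 and FastQC 0.11.5 are named too. The deposited values are FPKM per gene, as the authors computed them, with no counts, so the depth behind a value and its counting error are unknown. Without strand, a gene and its antisense partner cannot be told apart, and fragments shared by paralogs were split by estimation.

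Groups came from the titles and characteristics, and 1 of the 30 libraries in the table, whose group the labels do not give, was left out. The 3 FGRS KLS and 3 rEC LKS-SLAM libraries were compared on log2(FPKM + 1) with limma 3.58.1 in R 4.3.3 (moderated, with an intensity trend, two-sided), over genes that reached 1 FPKM in 2 or more of these 6 libraries, with Benjamini-Hochberg adjustment over all 12636 and a call at 0.05. Every adjusted p in the text is limma's. The fit was tested on simulated data. In every fit the spread of a gene is estimated from the groups together, which are assumed to vary alike. The rEC libraries varied more than the FGRS KLS libraries (median SD 0.56 against 0.21). With 2 libraries left in a group, the smaller group is likewise assumed to vary like the other. Tables were handled in Python 3.11.15 with pandas 2.3.3, and figures were drawn with matplotlib 3.10.9.

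The comparison, the gene lists and the tests were chosen with earlier results of these data known. Named genes were, per direction, the 15 called genes with the largest difference, no overlap and a group mean of at least 5 FPKM, and, per list, called members with the largest difference and uncalled members with the highest level. To these were added the 8 genes with the largest range within each group, those listed at 0 in one group and those with the tightest intervals. Not all of these are described, some genes are not reported here, and a few others are named where a result turns on them. Gene positions are from GENCODE vM21 on GRCm38, and promoter windows from RefSeq on GRCm38.p6. Alternatives were other pseudocounts (0.1 and 5), other filters, quantile normalization, median centring, a fit over 29 libraries, array weights, a test against a minimum difference and each library left out.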

Additional observations from a re-analysis of the deposited data

How the results depend on the processing

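Pseudocounts of 0.1 and 5 gave 1104 and 702 called genes, and scaling gave 1028 with quantile normalization and 1056 with median centring, against 900. Without a filter on low values 598 genes were called, 6253 in the fit over all 29 grouped libraries and 10700 with array quality weights, whose estimation stopped before it converged. Leaving out 1 library gave 75 to 6800. Of genes called with a difference of at least 1, 893 became 581 with a pseudocount of 5, 515 without a filter, 3496 in the fit over 29 libraries, 4863 with array weights, 124 when tested against a difference of 1, and 75 to 4856 with 1 library left out. The 2520 genes with an interval inside -1 to 1 became 6133 with a pseudocount of 5, 7408 without a filter, 5253 in the fit over 29 libraries, 6540 with array weights and 781 to 3649 with 1 library left out. The cause of these shifts was not tested. Of the 900 genes, 897 kept call and direction in the fit over 29 libraries, where 38.8% of calls were higher, against 59.8%.

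Of 199 named genes 115 were called, and none of these changed direction under any alternative run. Array weights kept all 115 calls, median centring 113, quantile normalization 107, a pseudocount of 0.1 110 and of 5 97, no filter 67, and single left-out libraries 38 to 115. Direction turned for named genes that were not called. With array weights the differences were -0.54 for Camp, -1.28 for Cd34, -1.36 for Cd74, -0.17 for Csf3r, -1.24 for Dntt, -2.37 for Flt3, -1.43 for Jchain, -0.45 for Ltf, -0.96 for Ly6a, -0.67 for Ngp, -0.63 for Plaur and -0.29 for Srgn. Prg2 was at -0.33 with a pseudocount of 5 and Cd74 at -0.18 with quantile normalization. With 1 library left out the range was -0.55 to 0.98 for Cd74, -0.56 to 1.07 for Flt3, -0.061 to 2.48 for Ltf, -0.89 to 1.38 for Ly6a, -1.38 to 2.31 for Prg2, -3.02 to 0.60 for Socs3, -0.044 to 0.98 for Srgn and -0.10 to 0.30 for Tpt1. No paired analysis was possible because the rEC titles carry only 1 replicate number, so the groups share no numbers that could pair libraries.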
